A study of Homo sapiens with 6 samples.

Results

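The genes described here were the ADAMTS, ADAM and MMP metalloproteinases and the TIMPs, their tissue inhibitors. A rule on the symbol picked them (ADAMTS, ADAM or MMP and a number, or TIMP1 to TIMP4). Earlier results of these data were known when the set was chosen. The rule found 66 of the 20030 gene names in the count table: 19 ADAMTS, 20 ADAM, 23 MMP and 4 TIMP genes. They were measured by sequencing of mRNA libraries made from total RNA of KGN cells, an established granulosa-like tumour line of human origin. One group of 3 libraries came from cells in which the long noncoding RNA SNHG5 was targeted by transfected siRNA (genotype given as SNHG5 knockdown). The other 3 came from cells transfected with a negative control siRNA (genotype given as WT), and both were harvested 48 h after transfection. Both groups were the same cell line, so each result is from 1 line and 1 time, and the labels give neither the number of siRNAs against SNHG5 nor whether the replicates were separate cultures. The level of SNHG5 itself was not analysed here.

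The SNHG5 siRNA libraries held 19417645 to 22088913 counts and the control siRNA libraries 18232634 to 20479618. SNHG5 siRNA replicate 2 stood apart: its chi-square against replicates 1 and 3, divided by the degrees of freedom, was 8.61 and 8.81, while replicates 1 and 3 differed by 1.91 and control pairs by 3.1 to 4.41. Results that rest on that library are given with and without it. The labelled cell type was checked against 12 granulosa markers. FOXL2, NR5A1, GATA4, AMH, INHBA, STAR and FST were above 10 CPM (counts scaled to library size) in both groups. INHBB had 14.4 ± 0.741 CPM with SNHG5 siRNA and 6.71 ± 1.32 CPM with control siRNA. FSHR was low, at 1.47 ± 0.354 CPM and 3.25 ± 0.242 CPM in the same order, and WT1 was below 1 CPM in every library. INHA (11 counts over the SNHG5 siRNA libraries, 24 over the control libraries) and CYP19A1 (22 and 14 counts) were too low to be tested. Of the 10 tested markers INHBB rose, FST, FSHR and GATA4 fell, and 6 did not pass. That is near the 40.2% of all genes tested that passed. The markers summed to 549.8 to 588.8 CPM with SNHG5 siRNA and 1057 to 1144 CPM with control siRNA. FST alone had 308 ± 18.2 CPM with SNHG5 siRNA and 822 ± 46.6 CPM with control siRNA. The median log2 fold change of the 10 tested markers was 0.03, and the part of the markers in the results was not tested. Of 6 theca and stroma markers, CYP17A1, INSL3 and LUM were at 0, DCN was below 1 CPM, PDGFRA was at 26.9 ± 1.85 CPM with SNHG5 siRNA and 30.1 ± 1.21 CPM with control siRNA, and COL1A1 was at 4389 ± 148 CPM with SNHG5 siRNA and 5709.7 ± 186 CPM with control siRNA. Of 3 epithelial markers KRT7 fell (21.5 ± 2.21 CPM with SNHG5 siRNA, 28.4 ± 0.725 CPM with control siRNA; not with the FPKM), and CDH1 and EPCAM were below 2 CPM. Of 3 leukocyte markers CD68 was at 26 ± 1.04 CPM with SNHG5 siRNA and 22.3 ± 2.46 CPM with control siRNA, which did not pass but did in 8 other settings, and PTPRC and CD14 were below 3 CPM. The 3 endothelial markers were below 3 CPM, with CDH5 at 0. In bulk RNA, fewer cells of a type and less RNA per cell cannot be told apart.

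ADAMTS, ADAM and MMP proteins are zinc-dependent proteases of the extracellular matrix and the cell surface. ADAMTS proteases are secreted and cleave proteoglycans, procollagens and microfibril proteins. ADAMs are mostly membrane-bound and shed the ectodomains of growth factors, cytokine receptors and adhesion molecules, although several lack the residues for catalysis and serve in adhesion. MMPs degrade collagens and other matrix proteins, some of them tethered to the membrane, and TIMPs bind and inhibit MMPs and some ADAM and ADAMTS proteases. In the ovary these families are known for the remodelling of the follicle wall and the cumulus matrix around ovulation.

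With SNHG5 siRNA, the proteases that changed were mostly lower. The aggrecan- and versican-cleaving proteases ADAMTS1 and ADAMTS5 were 1.84-fold and 1.88-fold lower, and the membrane-anchored MMP17 and the secreted MMP19 were 2.23-fold and 5.84-fold lower. MMP19 was near the detection floor, with 14 counts over the SNHG5 siRNA libraries and 80 over the control libraries. It passed the filter on low counts through the control libraries only. The membrane-anchored MMP24 was 1.81-fold higher and ADAM15 was 1.52-fold higher. MMP2, MMP14 and ADAM10 had log2 fold changes of 0.05, 0.0068 and -0.02, none of which passed the test. The 3 tested TIMPs had log2 fold changes between -0.17 and 0.09, and of these TIMP3 passed as lower.

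A filter on low counts left 36 of the 66 members for the test, and 30 were too low. Of the 36, 2 passed as higher and 16 as lower with SNHG5 siRNA at an adjusted p under 0.05 (edgeR's quasi-likelihood test, Benjamini-Hochberg adjustment over all 12508 genes tested), and 18 did not pass. Of all genes tested, 40.2% passed, 20.3% higher and 19.9% lower. Of the tested members, 5.56% passed as higher and 44.4% as lower. The median log2 fold change of the tested members was -0.17 and that of all genes tested -0.01. A fold of at least 1.5 with a pass was found in 10 members, or 27.8%, and in 7.41% of all genes tested. CPM of the groups did not overlap in 18 of the 36 members, near the 49.8% of all genes tested. MMP19 reached the filter's level in the control siRNA libraries only, so it had to differ in order to be tested. It is counted among the 16 lower members and the 10 with a fold of at least 1.5. With upper quartile scaling, 39.9% of the calls over all genes were higher, against 50.5% with the scaling used here, and the members then gave 2 higher and 17 lower.

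**Figure D1:**
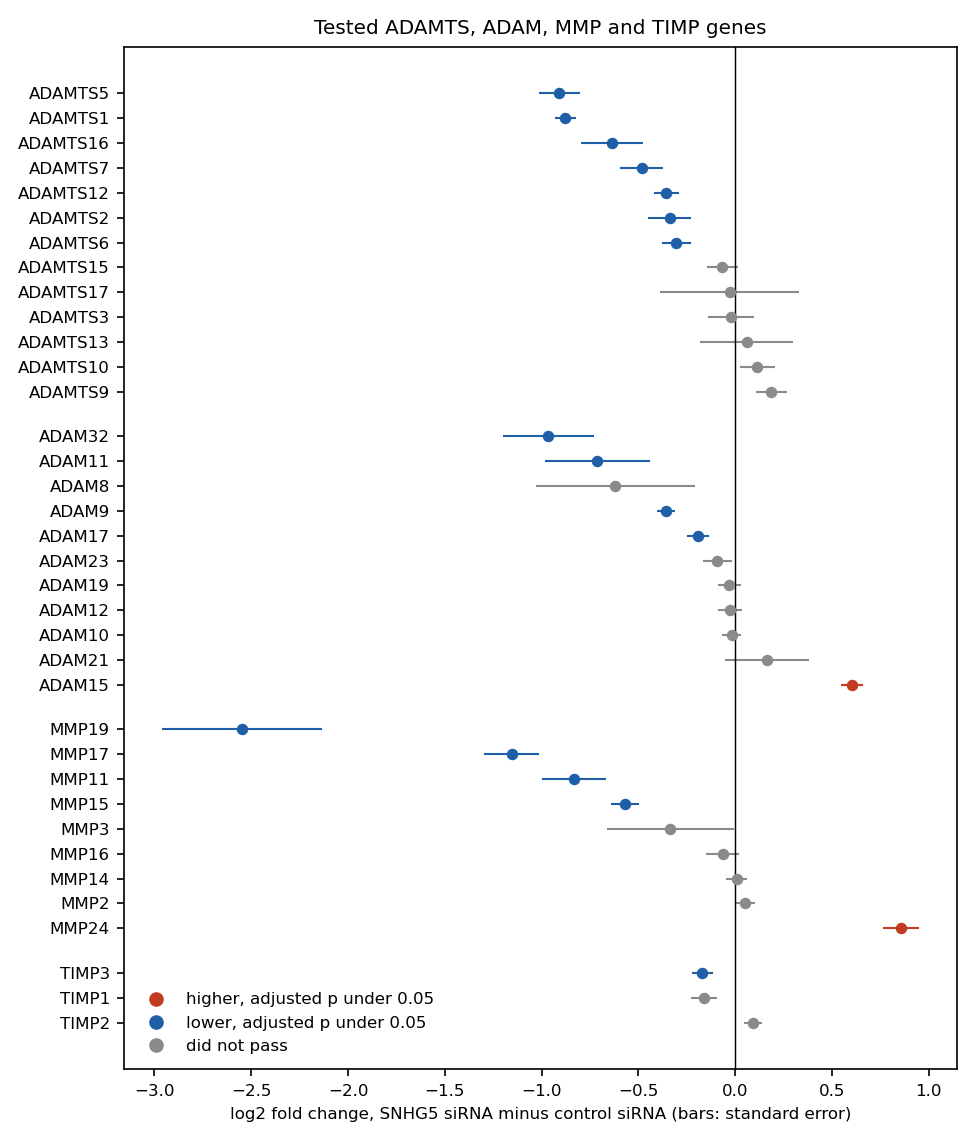
Log2 fold change of each tested member by family, SNHG5 siRNA minus control siRNA, with its standard error (3 libraries per group). Colours give the edgeR call at an adjusted p under 0.05; MMP24 and ADAM15 lie to the right of 0 with a call, and 16 members lie to the left with one.

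Levels per length were read from the deposited FPKM (fragments corrected for length and depth). TIMP2 had the highest FPKM of the members, 308 ± 10.4 with SNHG5 siRNA and 284 ± 8.48 with control siRNA (mean ± SD, n = 3 each, also below). ADAM9 followed with 138 ± 6.75 FPKM and 182 ± 4.4 FPKM, then TIMP1 with 52.9 ± 6.25 FPKM and 56.5 ± 2 FPKM. TIMP2 and ADAM9 together held 52.6% to 53.3% of the members' summed CPM, which is not corrected for length, with SNHG5 siRNA and 52.2% to 54.0% with control siRNA. ADAM10, ADAMTS1, MMP2, ADAM12, ADAM15 and MMP14 lay between 17 and 42 FPKM in the control siRNA group. ADAMTS1 stood below MMP2 in the SNHG5 siRNA group (19.1 ± 0.913 FPKM against 25.2 ± 1.02 FPKM) and above it in the control siRNA group (34.7 ± 1.61 FPKM against 23.2 ± 0.428 FPKM). ADAM15 stood above ADAM12 with SNHG5 siRNA (30.9 ± 1.08 FPKM against 19.6 ± 1.63 FPKM) and below it with control siRNA (18.2 ± 0.525 FPKM against 20.0 ± 0.618 FPKM).

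**Figure D2:**
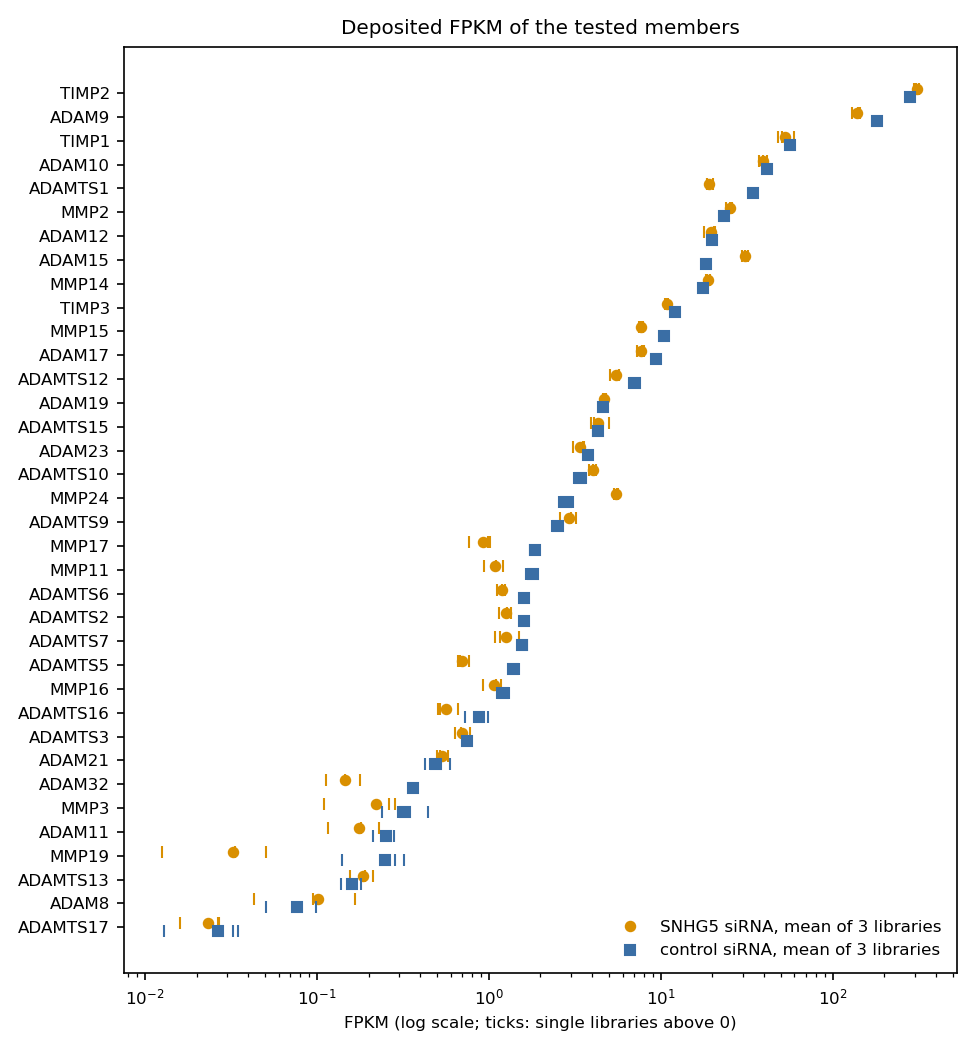
Deposited FPKM of the 36 tested members on a log axis, ordered by the control siRNA mean, with SNHG5 siRNA drawn above control siRNA for each gene; short ticks are single libraries above 0. TIMP2 and ADAM9 lead in both groups, and ADAMTS1, ADAMTS5, MMP17 and MMP19 lie to the left with SNHG5 siRNA while MMP24 and ADAM15 lie to the right.

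The series title names miR-92a-3p, a microRNA whose seed (bases 2 to 8) pairs with the 7-base site GTGCAAT. Its mature sequence is shown because members can be searched for that site, with the seed in capitals (RefSeq, GRCh38.p14).
hsa-miR-92a-3p: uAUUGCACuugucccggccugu
In the longest annotated 3' UTR of each gene (GENCODE v29, sense strand), the site was present in 4 of 35 tested members with an annotated 3' UTR (11.4%) and in 1654 of 12289 tested genes (13.5%). The 4 stretches are shown with the site in capitals, each on the gene's strand.
ADAMTS16 (chr5:5319193-5319221, GRCh38, plus strand): acaaatgagctGTGCAATctacgtcggaa
ADAMTS2 (chr5:179111851-179111879, GRCh38, minus strand): ttagagcatgtGTGCAATcctgcctctgt
ADAM10 (chr15:58597040-58597068, GRCh38, minus strand): tgtacttctgtGTGCAATtgtaaacagaa
ADAM19 (chr5:157480710-157480738, GRCh38, minus strand): ggtgttgttttGTGCAATatacagcccca
Of these, ADAMTS16 and ADAMTS2 passed as lower, with log2 fold changes of -0.64 and -0.34, while ADAM10 (-0.02) and ADAM19 (-0.03) did not pass. The median log2 fold change was -0.18 in the 4 members with the site and -0.16 in the other 31. A match is a stretch of letters and does not show binding.

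Among ADAMTS genes, 13 of 19 were tested, of which 53.8% passed, beside 40.2% of all genes tested. Of the 13, 0 rose, 7 fell and 6 did not pass, with a median log2 fold change of -0.30. Those that cleave the proteoglycans aggrecan and versican are described first. ADAMTS1, which is needed for ovulation in mice (chromosome 21, 26835747 to 26845409, minus strand, GRCh38), had 109.7, 120.4 and 112 CPM in SNHG5 siRNA replicates 1, 2 and 3, against 199, 217 and 213 CPM in control siRNA replicates 1, 2 and 3. The groups did not overlap, and the lowest control library was well above the highest SNHG5 siRNA library. On the log2 scale the fold change of ADAMTS1 was -0.88 ± 0.06 (SE; edgeR adjusted p = 6.01e-10).

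ADAMTS5, the main aggrecanase of mouse cartilage (chromosome 21, 26917912 to 26966513, minus strand, GRCh38), had 7.63, 8.8 and 7.72 CPM with SNHG5 siRNA and 14, 14.3 and 17.2 CPM with control siRNA. The groups were again apart, with control replicate 3 the highest library, and the log2 fold change was -0.91 ± 0.11 (SE; edgeR adjusted p = 1.62e-06). ADAMTS1 and ADAMTS5 are neighbours on chromosome 21, on the same strand, 72502 bases apart with 0 annotated coding genes between them. ADAMTS9, a further versican-cleaving protease, had 39.3, 31.8 and 36 CPM with SNHG5 siRNA and 32.1, 32 and 30.0 CPM with control siRNA. Its groups overlapped through SNHG5 siRNA replicate 2, and the log2 fold change of 0.19 did not pass (edgeR adjusted p = 0.0679); without that replicate it was 0.27 (edgeR adjusted p = 0.00142). ADAMTS15 had 27.4 ± 2.51 CPM with SNHG5 siRNA and 28.7 ± 0.61 CPM with control siRNA and did not pass. ADAMTS4, ADAMTS8 and ADAMTS20 were barely detected. ADAMTS4 had 2, 0 and 0 counts in SNHG5 siRNA replicates 1, 2 and 3 and 0 counts in each control library. A count of 3, the detection floor, was 0.135 to 0.165 CPM per library.

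ADAMTS2, the main procollagen N-propeptidase, had 12.5, 11 and 16.1 CPM with SNHG5 siRNA and 17.4, 16.5 and 16 CPM with control siRNA. SNHG5 siRNA replicate 3 lay within the control range, so the groups overlapped, and the fall of 0.34 on the log2 scale had the highest adjusted p of the 7 (edgeR adjusted p = 0.0196). The call ended without SNHG5 siRNA replicate 2 (-0.22), SNHG5 siRNA replicate 1 (-0.30), control replicate 1 (-0.30) or control replicate 3 (-0.37), and with the GC trend removed (-0.26). ADAMTS3, a protease of procollagen and of the lymphatic growth factor VEGF-C, had 6.69 ± 0.59 CPM with SNHG5 siRNA and 6.79 ± 0.499 CPM with control siRNA and did not pass.

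ADAMTS7 and ADAMTS12, related proteases that cleave cartilage oligomeric matrix protein, both fell. ADAMTS12 had 86.6, 76.2 and 86.7 CPM with SNHG5 siRNA and 113, 98.8 and 108 CPM with control siRNA, with no overlap and a log2 fold change of -0.36 ± 0.06 (SE; edgeR adjusted p = 2.19e-04). ADAMTS7 had 8.26, 7.74 and 9.68 CPM and 11.9, 13.2 and 10.7 CPM in the same order of groups, a log2 fold change of -0.48 (edgeR adjusted p = 0.00187). ADAMTS7 has near-identical pseudogene copies, so its counts are uncertain, and with the FPKM its change did not pass (-0.19 with 1 added, limma adjusted p = 0.0814). ADAMTS16, a protease known to cleave fibronectin, had 3.47, 3.37 and 4.79 CPM with SNHG5 siRNA and 6.5, 4.97 and 6.6 CPM with control siRNA. These groups lay close, 4.79 CPM in SNHG5 siRNA replicate 3 against 4.97 CPM in control replicate 2, and the log2 fold change was -0.64 ± 0.16 (SE; edgeR adjusted p = 0.00404).

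ADAMTS6 and ADAMTS10, a pair of close paralogues that act on fibrillin microfibrils, differed in their calls. ADAMTS6 had 26.8, 27.6 and 24.5 CPM with SNHG5 siRNA and 31.6, 32.2 and 33.5 CPM with control siRNA, a log2 fold change of -0.30 (edgeR adjusted p = 0.00292). ADAMTS10 had 25.4 ± 0.73 CPM with SNHG5 siRNA and 23.5 ± 3.06 CPM with control siRNA and a log2 fold change of 0.11, which did not pass; the difference between the paralogues was not tested. ADAMTS10 did pass as higher with the GC trend removed (0.25, edgeR adjusted p = 0.0315) and with the FPKM (0.19 with 1 added, limma adjusted p = 0.043). ADAMTS13, the protease of von Willebrand factor, and ADAMTS17 had under 2 CPM in both groups and did not pass. ADAMTS18 had 7 counts over the SNHG5 siRNA libraries and 0 over the control libraries, ADAMTS14 had 9 and 8 counts, and ADAMTS19 had 0 in every library.

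**Figure D3:**
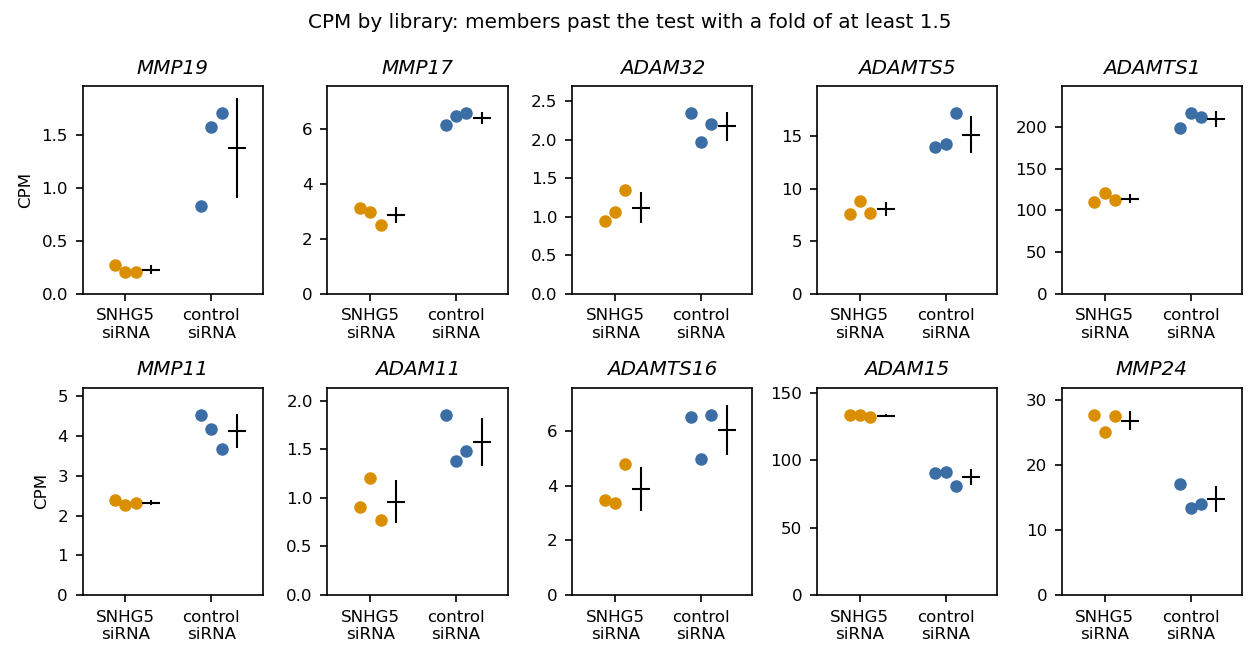
CPM of each library for the 10 members that passed with a fold of at least 1.5, SNHG5 siRNA left of control siRNA; dots are libraries and the bar beside them is the mean ± SD (n = 3). The groups do not overlap in any of the 10 panels, which adds no support because the panels were picked by pass and fold. Relative to their level the groups lie closest in ADAMTS16.

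Of 20 ADAM genes 11 were tested, of which 45.5% passed, near the 40.2% of all genes tested. Of the 11, 1 rose, 4 fell and 6 did not pass, with a median log2 fold change of -0.09. ADAM15, a membrane ADAM whose disintegrin domain binds integrins (chromosome 1, 155050566 to 155062775, plus strand, GRCh38), was the ADAM that rose. It had 133, 134 and 132 CPM with SNHG5 siRNA and 90.6, 91.3 and 80.6 CPM with control siRNA. The SNHG5 siRNA libraries lay within 2 CPM of each other and above all control libraries. The log2 fold change was 0.60 ± 0.06 (SE, edgeR adjusted p = 1.33e-07). Of the exon bases of ADAM15, 4.65% overlap exons of DCST1 on the same strand.

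ADAM9, a widely expressed sheddase and the most abundant protease of the set (chromosome 8, 38996869 to 39105144, plus strand, GRCh38), had 849, 803 and 852 CPM with SNHG5 siRNA and 1049, 1035 and 1124 CPM with control siRNA. The groups were apart, and the log2 fold change was -0.36 ± 0.05 (SE; edgeR adjusted p = 9.85e-06). Its neighbour ADAM32, an ADAM without a catalytic site, lies 1845 bases from ADAM9 on the same strand. ADAM32 had 0.948, 1.06 and 1.34 CPM with SNHG5 siRNA and 2.34, 1.97 and 2.2 CPM with control siRNA, a log2 fold change of -0.97 ± 0.23 (SE; edgeR adjusted p = 0.00288). ADAM32 had 21 to 26 counts per SNHG5 siRNA library and 40 to 48 per control library, and whether reads of ADAM9 that run past its end were counted for ADAM32 was not tested.

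The main sheddases of Notch and of tumour necrosis factor were also measured. ADAM17, which releases tumour necrosis factor and ligands of the epidermal growth factor receptor, had 82.3, 74.6 and 82.3 CPM with SNHG5 siRNA and 93.5, 89.4 and 90.7 CPM with control siRNA. It fell by 0.19 on the log2 scale (edgeR adjusted p = 0.0114), and the call ended without control replicate 1 (-0.17). In the annotation 13.6% of the exon bases of ADAM17 overlap exons of genes on the opposite strand, mostly IAH1. ADAM10, which cleaves Notch receptors, had 299, 293 and 315 CPM with SNHG5 siRNA and 310.3, 297 and 310.0 CPM with control siRNA; the groups overlapped and the log2 fold change of -0.02 ± 0.05 (SE) did not pass (edgeR adjusted p = 0.814).

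ADAM12, which sheds heparin-binding EGF-like growth factor, had 325 ± 32.8 CPM with SNHG5 siRNA and 332 ± 9.97 CPM with control siRNA, and ADAM19 had 55.5 ± 1.94 CPM and 56.7 ± 1.63 CPM in the same order; neither passed. Among ADAMs that lack a catalytic site, ADAM11 had 0.902, 1.21 and 0.772 CPM with SNHG5 siRNA and 1.86, 1.38 and 1.48 CPM with control siRNA. Its log2 fold change was -0.71 (edgeR adjusted p = 0.0416), and the call ended without any 1 of 5 libraries (all but SNHG5 siRNA replicate 2), with log2 fold changes between -0.80 and -0.57. It also ended in DESeq2 (-0.71, adjusted p = 0.108), with the GC trend removed (-0.59) and with the FPKM and no filter (-0.09). ADAM23, which like ADAM11 binds LGI proteins in neurons, had 29 ± 1.4 CPM with SNHG5 siRNA and 30.9 ± 1.98 CPM with control siRNA and did not pass. ADAM8 (-0.62) and ADAM21 (0.16), both under 3 CPM, did not pass either. ADAM20, ADAM22 and ADAM28 had 44, 38 and 17 counts over the 6 libraries and were not tested, ADAM18 and ADAM29 had 1 count each, and ADAM2, ADAM7, ADAM30 and ADAM33 had 0.

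For MMP genes, 9 of 23 were tested, of which 55.6% passed, beside 40.2% of all genes tested. Of the 9, 1 rose, 4 fell and 4 did not pass, with a median log2 fold change of -0.33. The membrane-anchored MMPs moved in both directions. MMP24, known in neurons for cleaving N-cadherin (chromosome 20, 35226654 to 35277000, plus strand, GRCh38), had 27.8, 25.1 and 27.5 CPM with SNHG5 siRNA and 17, 13.3 and 14 CPM with control siRNA. All SNHG5 siRNA libraries were above all control libraries, and the log2 fold change was 0.86 ± 0.09 (SE; edgeR adjusted p = 8.09e-07). In the annotation, 21.8% of the exon bases of MMP24 overlap exons of genes on the opposite strand, mostly MMP24OS. MMP24OS had 32.8, 34.2 and 26.7 CPM with SNHG5 siRNA and 25.2, 27.5 and 26.7 CPM with control siRNA, a log2 fold change of 0.24 (edgeR adjusted p = 0.035). Whether the counting used strand is not given in the sources used here, and without strand the reads of the 2 genes cannot be told apart where they overlap.

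MMP17, which is held by a glycosylphosphatidylinositol anchor (chromosome 12, 131828393 to 131851783, plus strand, GRCh38), had 3.11, 2.97 and 2.52 CPM with SNHG5 siRNA and 6.15, 6.5 and 6.6 CPM with control siRNA. The spread within each group was small beside the gap, and the log2 fold change was -1.16 ± 0.14 (SE; edgeR adjusted p = 3.49e-06). MMP15, a transmembrane MMP, had 24.7, 24.5 and 26.8 CPM with SNHG5 siRNA and 38.8, 37.6 and 36.4 CPM with control siRNA, a fall of 0.57 on the log2 scale (edgeR adjusted p = 4.25e-06). MMP14, the transmembrane protease that activates the proenzyme of MMP2 together with TIMP2, had 76.2, 75.9 and 77.9 CPM with SNHG5 siRNA and 79.2, 77.3 and 72.2 CPM with control siRNA. Its groups overlapped and its log2 fold change of 0.0068 ± 0.06 (SE) did not pass (edgeR adjusted p = 0.936). MMP16 had 27.6 ± 2.58 CPM and 28.9 ± 2.35 CPM with SNHG5 and control siRNA and did not pass, and MMP25, with 14 and 16 counts over the libraries of each group, was not tested.

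Of the secreted MMPs, MMP2, the gelatinase that degrades denatured collagen and basement membrane collagen, had the highest FPKM. It had 117, 123 and 126 CPM with SNHG5 siRNA and 120.1, 117 and 118 CPM with control siRNA, with a log2 fold change of 0.05 ± 0.05 (SE; edgeR adjusted p = 0.486). The other gelatinase, MMP9, had 0, 0 and 2 counts in SNHG5 siRNA replicates 1, 2 and 3 and 0 counts in each control library.

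MMP19, a secreted protease of basement membrane proteins (chromosome 12, 55835433 to 55842966, minus strand, GRCh38), had 6, 4 and 4 counts with SNHG5 siRNA and 17, 32 and 31 counts with control siRNA. These counts correspond to 0.271, 0.201 and 0.206 CPM and 0.83, 1.58 and 1.7 CPM; control replicate 1 was the lowest control library and still above every SNHG5 siRNA library. The log2 fold change was -2.55 ± 0.41 (SE, edgeR adjusted p = 7.44e-05), and between -2.81 and -2.37 with 1 library left out. That range adds no support, because MMP19 had to differ in order to be tested. In the annotation 17.4% of its exon bases overlap exons of TMEM198B on the opposite strand. MMP11, a stromelysin that is activated by furin inside the cell (chromosome 22, 23768226 to 23784316, plus strand, GRCh38), had 2.39, 2.26 and 2.32 CPM with SNHG5 siRNA and 4.54, 4.18 and 3.68 CPM with control siRNA. It fell by 0.83 on the log2 scale (SE 0.17, edgeR adjusted p = 6.09e-04). Of the exon bases of MMP11, 4.21% overlap exons of CHCHD10 on the opposite strand.

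Promoter stretches are shown for MMP24 and MMP11, the members with a pass, a fold of at least 1.5, an entry in the RefSeq promoter table and no annotated exon in the 200 bases from 250 to 51 bases before the start. The window of MMP11 lies before a RefSeq start that is inside the longer GENCODE gene. Both are on the plus strand of GRCh38.p14, and capitals mark the GC box (GGGCGG or its reverse complement CCGCCC).
MMP24 (chr20:35226440-35226639): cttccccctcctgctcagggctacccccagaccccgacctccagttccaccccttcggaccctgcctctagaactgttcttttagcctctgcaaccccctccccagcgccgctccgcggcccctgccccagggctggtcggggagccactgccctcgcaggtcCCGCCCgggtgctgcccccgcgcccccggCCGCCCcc
MMP11 (chr22:23772599-23772798): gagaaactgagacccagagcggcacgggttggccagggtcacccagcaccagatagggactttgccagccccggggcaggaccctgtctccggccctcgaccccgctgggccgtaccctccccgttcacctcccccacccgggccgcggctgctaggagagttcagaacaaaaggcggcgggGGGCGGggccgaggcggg
The window of MMP24, which rose, held 2 GC boxes and that of MMP11, which fell, held 1. A GC box was present in this window in 18 of 22 tested members with an entry (81.8%) and in 55.6% of 9938 tested genes with one. The AP-1 word TGAGTCA, searched on both strands, was in the window of 0 of the 22 members and in 1.81% of the tested genes. A match is a description of the letters, and no match says only that the letters are not in this window.

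A cluster of 9 MMP genes on chromosome 11 (102520508 to 102955734) was barely detected in these cells. Of it only MMP3, a stromelysin, was tested, at 0.779 ± 0.199 CPM with SNHG5 siRNA and 0.995 ± 0.284 CPM with control siRNA, and it did not pass (log2 fold change -0.33). The other 8, which include the collagenases MMP1, MMP8 and MMP13, summed to 6 counts over all 6 libraries. Outside the cluster, MMP28 had 18 and 29 counts over the SNHG5 siRNA and control siRNA libraries and MMP23B, which has a near-identical pseudogene copy, had 9 and 1. MMP21 and MMP26 had 0 counts in every library.

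Of the 3 tested TIMPs, 0 rose, 1 fell and 2 did not pass, so 33.3% passed, beside 40.2% of all genes tested. TIMP3, which binds the matrix and inhibits ADAM17 and several ADAMTS proteases besides MMPs, had 66.2, 64.2 and 65.3 CPM with SNHG5 siRNA and 70.6, 76.1 and 73.4 CPM with control siRNA. The groups did not overlap and it fell by 0.17 on the log2 scale (edgeR adjusted p = 0.0222). That call ended without control replicate 2 (-0.14) or SNHG5 siRNA replicate 1 (-0.18) or 3 (-0.17).

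TIMP1 had 65.8, 76.4 and 62.8 CPM with SNHG5 siRNA and 78, 75.4 and 76.1 CPM with control siRNA. SNHG5 siRNA replicate 2 lay within the control range while the other libraries of that group were below it. The log2 fold change of -0.16 did not pass (edgeR adjusted p = 0.0594), and without that replicate it was -0.25 (edgeR adjusted p = 3.11e-04). TIMP2, the inhibitor that also takes part in MMP2 activation, had 1119, 1042 and 1085 CPM with SNHG5 siRNA and 990.4, 1031 and 1027 CPM with control siRNA. The groups did not overlap, but the log2 fold change of 0.09 did not pass (edgeR adjusted p = 0.123); without SNHG5 siRNA replicate 2 it was 0.12 (edgeR adjusted p = 0.0121), and it also passed with the GC trend removed (0.13). TIMP4 had 1, 0 and 0 counts in SNHG5 siRNA replicates 1, 2 and 3 and 2, 2 and 1 counts in control siRNA replicates 1, 2 and 3.

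Genes that act with these proteases were read from 8 lists, beside the 20.3% higher and 19.9% lower of all genes tested. Of 13 tested substrates of ADAMTS proteases 6 rose, 5 fell and 2 did not pass. COL1A2, a chain of type I collagen, rose with 274 ± 8.31 CPM with SNHG5 siRNA and 179 ± 2.17 CPM with control siRNA (log2 fold change 0.61), while COL1A1, the other chain, fell by 0.38 on the log2 scale (named after its values were seen). LTBP1, a microfibril protein that binds latent TGF-beta, rose by 0.48. The lymphatic growth factor gene VEGFC fell by 0.49 on the log2 scale. VCAN, versican, the proteoglycan of the cumulus matrix that ADAMTS1 cleaves, was named after its values were seen. It had 449, 376 and 482 CPM with SNHG5 siRNA and 339.7, 307 and 319 CPM with control siRNA, a log2 fold change of 0.44 ± 0.07 (SE; edgeR adjusted p = 6.23e-05), while the aggrecan gene ACAN was at 0 in every library.

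Substrates shed by ADAMs were tested in 28 genes, of which 7 rose, 7 fell and 14 did not pass. IL6R, a receptor of interleukin 6, had a log2 fold change of 0.63 and SDC1, a heparan sulfate proteoglycan of the cell surface, 0.63. ERBB4, a neuregulin receptor, had -0.91 at 0.69 ± 0.17 CPM with SNHG5 siRNA and 1.29 ± 0.146 CPM with control siRNA. Its call ended without control replicate 2 (-0.86) or 3 (-0.86) or SNHG5 siRNA replicate 1 (-0.75), in DESeq2 (-0.91) and with the FPKM and no filter (-0.04).

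Adaptors that carry ADAM10 and ADAM17 to the cell surface gave 1 higher, 3 lower and 5 not passing of 9. TSPAN33, a tetraspanin partner of ADAM10, fell by 0.89 on the log2 scale, with 2.41 ± 0.395 CPM with SNHG5 siRNA and 4.49 ± 0.435 CPM with control siRNA, and the related TSPAN10 fell by 0.48. With the FPKM the call of TSPAN10 ended (-0.24 with 1 added, limma adjusted p = 0.0735). RHBDF2, an iRhom partner of ADAM17, had -0.28 (edgeR adjusted p = 0.0432), a call that was lost when any library other than SNHG5 siRNA replicate 1 was left out, with log2 fold changes between -0.34 (without control replicate 3) and -0.17 (without SNHG5 siRNA replicate 2). It was also lost in DESeq2 (-0.28), with the FPKM (-0.10 with 1 added) and with the GC trend removed (-0.16).

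Other regulators of metalloproteinases gave 1 higher, 5 lower and 5 not passing of 11. RECK, a membrane-anchored inhibitor of MMPs, had 42.2, 44 and 47.7 CPM with SNHG5 siRNA and 61.6, 61.2 and 67.5 CPM with control siRNA, a log2 fold change of -0.51 ± 0.06 (SE; edgeR adjusted p = 4.96e-06). THBS1 and THBS2, matrix thrombospondins that bind MMP2, had log2 fold changes of -0.63 and -0.41. Of the proprotein convertases, which cut the propeptides of many members, PCSK7 rose by 0.52, while FURIN had 87.1 ± 1.53 CPM with SNHG5 siRNA and 82.9 ± 7.4 CPM with control siRNA and did not pass (log2 fold change 0.07). FURIN passed as higher with the FPKM (0.20 with 1 added, limma adjusted p = 0.0206) and with the GC trend removed (0.18, edgeR adjusted p = 0.0274).

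In the list of ADAMTS-like proteins, which lack a catalytic domain, 0 rose, 1 fell and 4 did not pass of 5 tested. ADAMTSL4, a microfibril-binding protein, had 1.67, 1.71 and 1.13 CPM with SNHG5 siRNA and 6.35, 5.51 and 6.6 CPM with control siRNA, a log2 fold change of -2.02 ± 0.18 (SE; edgeR adjusted p = 5.54e-08). ADAMTSL1 (-0.02) and THSD4 (0.05), named for their CPM, did not pass. The other metzincins, zinc proteases of related fold, gave 1 higher, 2 lower and 1 not passing of 4. BMP1, the procollagen C-propeptidase, fell by 0.41 on the log2 scale and PAPPA, the granulosa protease of IGF-binding protein 4, by 0.37; TLL1, a paralogue of BMP1, rose by 0.95. The last list held AP-1, ETS and RUNX factors, which are known to bind MMP promoters, and PGR, the progesterone receptor. Of its 11 tested genes 3 rose, 1 fell and 7, with PGR among them, did not pass: JUNB had -1.03, ETS1 0.37 and ETS2 0.30 on the log2 scale.

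**Figure D4:**
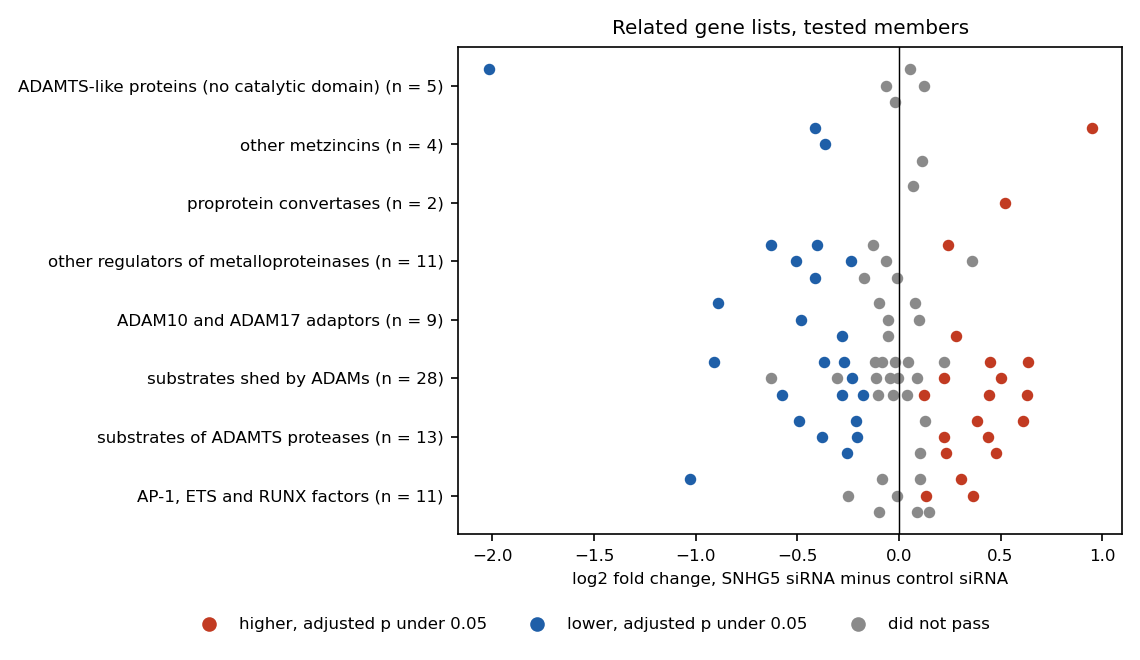
Log2 fold change, SNHG5 siRNA minus control siRNA, of each tested gene of the 8 related lists (that of AP-1, ETS and RUNX factors includes PGR; 1 dot per gene; n is the number tested; vertical offsets only part the dots). Substrates of both protease families lie on both sides of 0, and ADAMTSL4, at -2.02, lies farthest to the left.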

How the data were processed

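The count table held raw counts per gene name as the authors deposited them, and the second table held the authors' FPKM, scaled to gene length and library size. Reads were trimmed with Trimmomatic and build GRCh38 was used, per the submitters' processing notes; aligner, counting program, its use of strand and annotation are not given in the sources used here. Libraries were made with a SMARTER mRNA kit, per the labels' protocols. Both tables held the 6 libraries and no other columns.

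Counts were scaled by TMM and genes that passed filterByExpr (12508 of 20030 names) were tested with edgeR 4.0.16 (R 4.3.3), 2-sided quasi-likelihood test of SNHG5 siRNA against control siRNA, Benjamini-Hochberg adjustment over all of them, threshold 0.05. SE is the log2 fold change divided by the root of the F statistic. CPM use the TMM-scaled library sizes. FPKM were tested with limma 3.58.1 on log2(value + 1) as an alternative; DESeq2 1.42.0 was another. The test was also run on simulated counts with known changes in far fewer genes than were called here. That run does not give its error rate for these data. Values were read from the fit over all genes, with no set test. The detection floor covers counting only, and SE, SD and p-values reflect the spread among these 6 libraries alone. Locations and 3' UTRs came from GENCODE 29 and sequences of promoters and of the microRNA from RefSeq; 39 of the 66 members had a promoter entry.

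The members, the 8 lists and the naming rule were chosen with earlier results of these data known. Values in every library are given for members that passed with an absolute log2 fold change of at least 0.3 or a mean CPM of at least 50, and always the TIMPs, MMP2, MMP9, MMP14, ADAM10, ADAM17, ADAMTS1, ADAMTS4, ADAMTS5 and ADAMTS9. Of each list up to 3 passing genes were named, or the 2 with the highest CPM where fewer than 2 passed. Other settings tried were other scalings, no filter, the replicate number as a block, each library left out in turn, the FPKM with other settings, and removal of the trend on GC content (known for 98.7% of the tested genes).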

Additional observations from a re-analysis of the deposited data

How the results depend on the processing

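Of the 18 members that passed, 13 kept their direction and their call in every setting in which they were tested. MMP19 is among the 13 but adds no support, because it had to differ in order to be tested. The exceptions were ADAM11, ADAM17, ADAMTS2, ADAMTS7 and TIMP3. Members called higher numbered 4 without SNHG5 siRNA replicate 2 and 4 with the GC trend removed, against 2, and ranged from 2 to 4 over the libraries left out; members called lower ranged from 13 to 16 over the libraries left out and from 12 to 17 over the other settings. Genes called over all genes tested ranged from 3991 to 5608 with 1 library left out and from 3581 to 5714 otherwise. The median log2 fold change of the members was -0.098 with the FPKM and 1 added, where 29 members were tested and low ones such as MMP19 were not. With the FPKM and 0.1 added, also over 29 members, it was -0.14. It was -0.096 with the FPKM and no filter, against -0.17 with the counts. A value added to the FPKM understates the change of low genes, and MMP19 was at -0.27 with the FPKM and no filter. Whether the replicate numbers pair the libraries was not tested. The correlations of same-numbered deviations were 0.0463, 0.13 and 0.0264. Those of differently numbered libraries across the groups lay between -0.116 and 0.0843. With the replicate block, 3 members were higher and 17 lower, 5714 genes passed in all, and ADAMTS9 (0.18) and TIMP1 (-0.17) passed.

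Direction turned only in genes that passed in neither setting. It turned with upper quartile scaling in MMP14 (-0.034); with the FPKM and 1 added in ADAM19 (0.016) and ADAMTS15 (0.011). It also turned with the FPKM and 0.1 added in ADAM19 (0.019) and ADAMTS15 (0.012); with the FPKM and no filter in ADAM19 (0.016), ADAM8 (0.032) and ADAMTS15 (0.011); with the GC trend removed in ADAM19 (0.014), ADAMTS15 (0.031), ADAMTS17 (0.048) and ADAMTSL1 (0.031). Over the libraries left out, the log2 fold change took both signs in ADAM10 (-0.047 to 0.0081), ADAM12 (-0.077 to 0.056), ADAMTS17 (-0.30 to 0.19), ADAMTS3 (-0.085 to 0.0395), ADAMTSL1 (-0.068 to 0.043), FURIN (-0.00204 to 0.12), MMP14 (-0.031 to 0.035) as well as MMP16 (-0.13 to 0.0095) and PGR (-0.064 to 0.089). The causes were not tested. At this depth 30 members could not be tested, which does not show that they are absent.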
